A study of Mus musculus with 24 samples.

Results

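The PAF1 complex and the elongation factors that work beside it were followed here as 9 genes, Paf1, Ctr9, Leo1, Cdc73, Rtf1, Wdr61, Supt5, Supt6 and Cdk9. They were taken as the rows of the count table whose Entrez identifier carries one of these symbols, and all 9 were found among 27179 genes. RNA was sequenced from 3 sorted marrow populations, which are haematopoietic stem cells (HSC), the multipotent progenitors downstream of them (MPP) and restricted progenitors called HPC-1. Each was taken from 4 Phf6-deleted mice and from 4 controls whose Phf6 was intact, which gave 6 groups of 4 libraries. The mice came from 4 litters, each with 1 deleted and 1 control mouse, and the replicate number is the litter. Every mouse carries the same strain label, Phf6lox/Y;Tie2-creTg/+. The labels therefore do not say whether the control mice also carried Cre. Tie2-cre is active in endothelial and blood-forming cells, the floxed gene lies on the X chromosome, and the age of the mice is not in the labels. Cells were sorted from lineage-depleted marrow on cKIT, SCA1, CD150 and CD48.

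RNA polymerase II often pauses soon after it starts a gene. Its release and its passage through the gene depend on P-TEFb, the kinase whose catalytic subunit is CDK9, on the clamp protein SPT5 (Supt5), on the histone chaperone SPT6 (Supt6), and on the PAF1 complex. The PAF1 complex is built from PAF1, CTR9, LEO1, CDC73 and WDR61, with RTF1 attached more loosely in mammals, and it aids histone H2B ubiquitination and elongation. The PHF6 protein has been reported to bind the PAF1 complex in developing neurons. Whether loss of PHF6 goes with a change in the RNA of these genes is the comparison the design allows, and RNA says nothing of the assembly or binding of the proteins.

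Total counts ran from 9658167 to 27786830 per library. Levels are given as CPM, a count relative to library size, with sizes scaled by TMM to adjust for differing RNA make-up. Phf6 averaged 56.6 ± 17.5 CPM in deleted HSC and 218.4 ± 24.6 CPM in control HSC (SD, n = 4 each), and its deleted and control libraries did not overlap in any population. RNA of the sort genes was looked at in each population. Slamf1, which encodes CD150, was at 9.07 to 52.8 CPM in deleted HSC and 52.6 to 87.9 CPM in control HSC, and at no more than 3.42 CPM in any MPP or HPC-1 library. Cd48 was at 168 CPM or more in all 8 HPC-1 libraries and at no more than 51.9 CPM in the others. Ly6a, which encodes SCA1, was at 29.9 to 77.0 CPM in HPC-1 and at 123 CPM or more in HSC and MPP. Kit, which encodes cKIT, was at 465 CPM or more in every library. Procr, which was not sorted on, was at 62.4 to 124 CPM in HSC and higher in MPP, at 137 to 187 CPM. HPC-1 libraries were made with another library kit, so their differences in level from HSC and MPP cannot be told apart from it. A single library stood apart: MPP from the deleted mouse of litter 3 held 9.34% of its counts in its 10 most abundant genes, and its median absolute deviation from its own group over all genes was 0.48 on the log2 scale, against 0.35 or less in the others. The effects of deletion on the 9 genes in MPP are given with and without it. Fewer cells of a type and less RNA per cell cannot be told apart in bulk RNA.

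Every one of the 9 genes was detected in all 24 libraries, with at least 260 counts in each. Per kilobase of counted gene length, Wdr61 was the most abundant of the 9 in HSC, at 134 ± 18.3 CPM per kilobase in deleted and 119.5 ± 13.5 in control libraries, and in MPP, at 138 ± 47.3 in deleted and 121 ± 6.63 in control libraries (SD, n = 4 each). WDR61 is a WD-repeat protein that also belongs to the cytoplasmic SKI complex of RNA decay. Supt6 was the least abundant in HSC and MPP, with means of 8.05 CPM per kilobase in deleted and 9.90 in control HSC. A middle group of Supt5, Cdk9 and Paf1 lay between 43.2 and 60.2 CPM per kilobase in all 4 group means of HSC and MPP. Neighbours in that middle group overlapped in range, except Supt5 and Cdk9 in control HSC and Cdk9 and Paf1 in control MPP. Cdc73, Ctr9 and Leo1 formed a lower group between 17.4 and 27.0 CPM per kilobase, and neighbours in it overlapped in range in each of these 4 groups. Rtf1 and Supt6 came last, and they too overlapped except in deleted MPP. Among all genes tested in HSC the level of Wdr61 per kilobase stood at percentile 94.6 and that of Supt6 at percentile 42.3. Wdr61 also has the shortest counted length of the 9, at 1308 bases, and Supt6 the longest, at 6201. The part of gene length in this order was not tested.

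In HPC-1 the order differed. Supt5 led there with 72.5 ± 2.20 CPM per kilobase in deleted and 72.8 ± 5.32 in control libraries (SD, n = 4 each), and Leo1 was lowest, at 21.1 ± 1.37 in deleted and 21.8 ± 1.58 in control libraries. Supt6 stood at 32.8 CPM per kilobase in deleted and 32.6 in control HPC-1, and Wdr61 at 57.2 in deleted and 56.5 in control HPC-1. The HPC-1 libraries were made with a TruSeq Stranded kit and those of HSC and MPP by SMART-Seq v4 amplification, so a difference in level between HPC-1 and the other populations cannot be told apart from the kit.

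**Figure D1:**
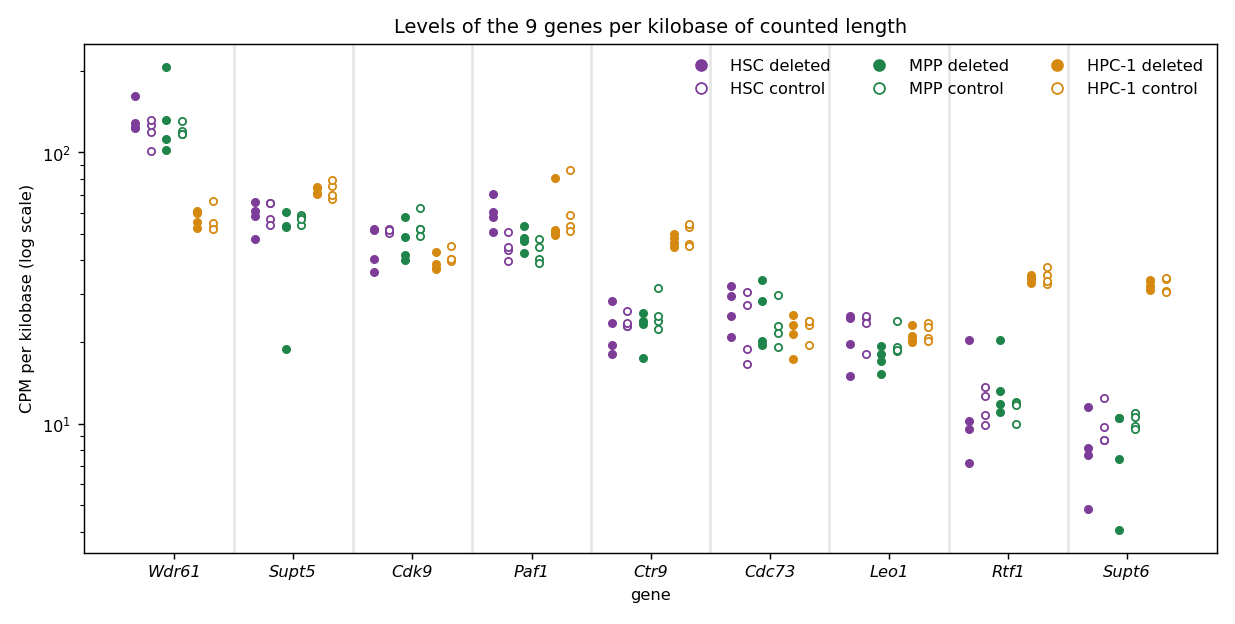
Level of each gene in CPM per kilobase of counted length (vertical axis, log scale), 1 point per library, filled for Phf6-deleted and open for control mice, coloured by population. Wdr61 heads the 9 genes in HSC and MPP and Supt6 closes them. In HPC-1 Supt5 leads at 72.5 CPM per kilobase in deleted and 72.8 in control libraries.

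None of the 9 genes passed the test for a change with deletion of Phf6 in HSC, MPP or HPC-1. In HSC 0 of 9 passed an adjusted p of 0.05 (edgeR's quasi-likelihood test, Benjamini-Hochberg over 13693 genes), beside 0.0073% of all genes tested, which is 1 gene, Phf6 itself. In MPP 0 of 9 passed, beside 0.029% of 13806 genes, and in HPC-1 0 of 9 passed, beside 0.0647% of 13907 genes. DESeq2 also called 0 of the 9 in each population. At an unadjusted p under 0.05, edgeR and DESeq2 each counted 1 of the 9 in HSC, which was Paf1, where edgeR counted 3.86% of all genes. Both counted 0 in MPP, against 8.09% of all genes, and 0 in HPC-1, against 4.99%. No member had deleted and control libraries that did not overlap, while 3.14% of all genes tested had such a separation for HSC, 5.77% for MPP and 3.66% for HPC-1.

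The intervals set how large a difference these data could still hold. In HPC-1 the 95% interval of each of the 9 genes lay within a 2-fold change in either direction, also with each library left out in turn and with the litter as a block. In HSC all 9 did so too, with the block and in 7 of the 8 fits that left out a library, while without deleted HSC of litter 4 the interval of Supt6 reached 0.482-fold. In MPP all 9 lay within 2-fold in the fit without a block, but with the litter as a block 7 of 9 did, and the intervals of Supt5 and Supt6 reached below it, to 0.485-fold at the lowest. Of the 8 fits that left out a library of MPP, only that without the library that stood apart kept all 9 within 2-fold, and leaving out any of the other 7 libraries took Supt5, Supt6 or both beyond it, to 0.45-fold at the lowest. The widest bounds with all libraries and no block were 0.554-fold and 1.7-fold of control in HSC, and 0.52-fold and 1.72-fold in MPP. In HPC-1 all 9 intervals lay between 0.674-fold and 1.28-fold of control. Within the narrower limit of 1.5-fold lay 5 of the 9 intervals for HSC, 2 for MPP and 9 for HPC-1. Without the MPP library that stood apart, all 9 intervals in MPP lay within 1.5-fold.

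**Figure D2:**
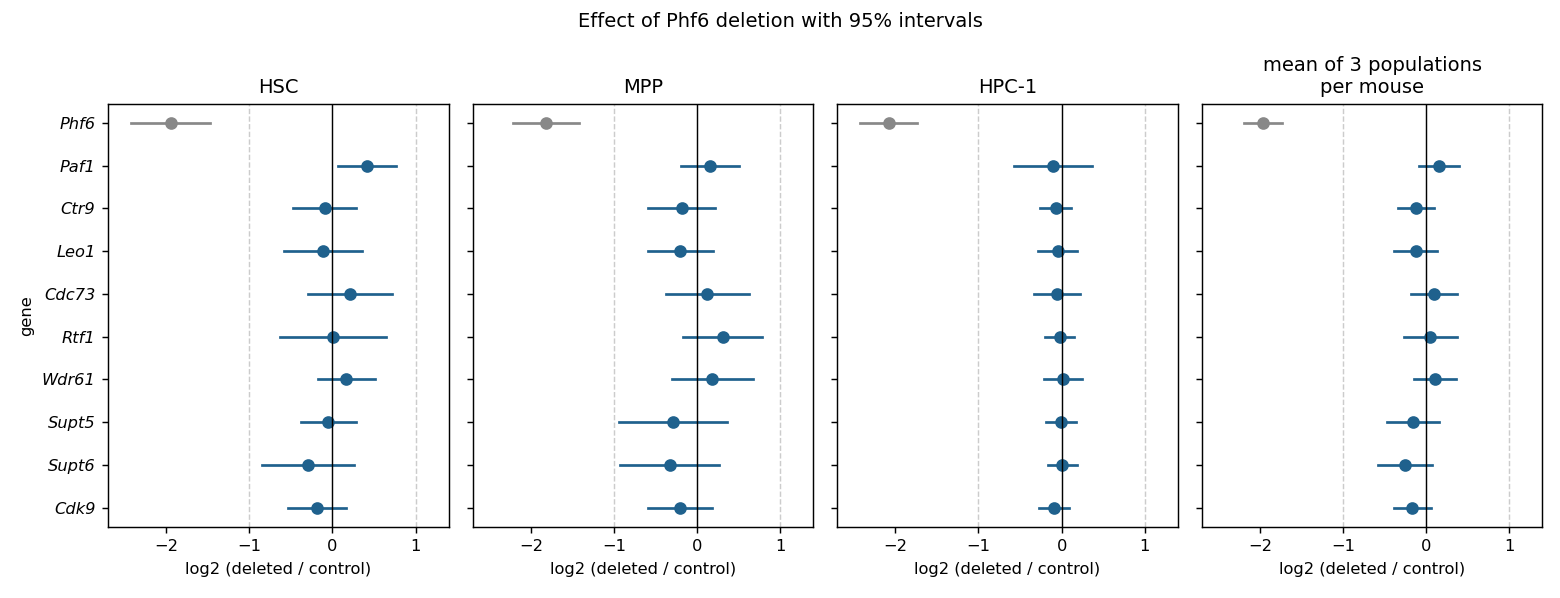
Log2 fold change of deleted over control libraries (horizontal axis) for Phf6, in grey, and the 9 genes, in blue, in HSC, MPP, HPC-1 and the mean of the 3 populations per mouse. Points are fitted values and bars 95% intervals, and dashed lines mark a 2-fold change. The interval of Paf1 in HSC, from 0.06 to 0.76, is the only one among those of the 9 genes drawn that does not hold 0.

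Paf1 (Entrez 54624, chromosome 7, 28392996 to 28399383 on GRCm38.p6, plus strand), the subunit that names the complex, had the largest difference of the 9 in HSC. Its level was 117.8, 99.4, 136.9 and 112.7 CPM in deleted HSC of litters 1 to 4, against 85.4, 87.9, 99.6 and 77.6 CPM in control HSC. The deleted library was the higher one in all 4 litters, and the groups overlapped only in that the lowest deleted library, litter 2, lay just below the highest control library, litter 3. The log2 fold change was 0.41 ± 0.16 (SE), or 1.33-fold with a 95% interval from 1.04 to 1.7, with an edgeR unadjusted p of 0.0248 and an adjusted p of 0.998. Over 12 alternative fits the log2 fold change ran from 0.33 to 0.49 and the adjusted p was never below 0.602. The unadjusted p was under 0.05 in 8 of these 12 and 0.0625 at the highest, and without deleted HSC of litter 3 the interval reached 0 (edgeR unadjusted p = 0.0501).

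In MPP, Paf1 stood at 92.2, 83.2, 94.9 and 105 CPM in deleted libraries of litters 1 to 4, against 87.8, 78.8, 94.1 and 76.5 CPM in control libraries. Deleted was again higher in all 4 litters, but by 0.08 or less on the log2 scale in litters 1 to 3 and by 0.45 in litter 4. The fitted log2 fold change was 0.15 ± 0.16 (SE, edgeR adjusted p = 0.75), and it was 0.15 without the library that stood apart. Deleted HPC-1 held 97.2, 101, 99.2 and 156.7 CPM and control HPC-1 105, 100.2, 115 and 168.2 CPM. Both mice of litter 4 were high, and the lower of them was 1.36 times the highest of the other 6 libraries. The spread of Paf1 within the HPC-1 groups, an SD of 0.34 on the log2 scale, lay at percentile 96.9 of genes of like level, whose median was 0.14. It lay at percentile 11.5 in HSC and 5.09 in MPP. Subtracting the effect of deletion in HSC from that in HPC-1 gave -0.52 ± 0.26 on the log2 scale for Paf1 (SE, edgeR adjusted p = 1). The kit also differs between these populations, so this difference of effect cannot be told apart from it. The value moved with the litter 4 libraries of HPC-1, and was -0.71 without the deleted one (edgeR unadjusted p = 0.00737, adjusted p = 1) and -0.33 without the control one (adjusted p = 1).

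Ctr9 (Entrez 22083, chromosome 7, 111028951 to 111056377, plus strand) encodes the scaffold subunit that holds the PAF1 complex together. It averaged 96.1 ± 19.7 CPM in deleted and 102 ± 6.57 CPM in control HSC, 97.3 ± 15.1 CPM in deleted and 110.5 ± 17.6 CPM in control MPP, and 203 ± 9.91 CPM in deleted and 214 ± 20.7 CPM in control HPC-1 (SD, n = 4 each). Its log2 fold changes were -0.09, -0.18 and -0.07 in HSC, MPP and HPC-1, with standard errors of 0.17, 0.18 and 0.09 (edgeR adjusted p of 0.998, 0.74 and 0.999). Without the library that stood apart the value in MPP was -0.07. The deleted library was the higher one in 5 of the 12 litter pairs over the populations.

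Leo1 (Entrez 235497, chromosome 9, 75441015 to 75466432, plus strand) encodes the partner that pairs with PAF1 in a shared module, and it had between 343 and 1313 counts per library. Deleted libraries ran from 33.0 to 54.7 CPM in HSC, from 33.3 to 42.4 CPM in MPP and from 43.7 to 50.5 CPM in HPC-1. Control libraries ran from 39.5 to 54.8 CPM in HSC, from 40.5 to 52.3 CPM in MPP and from 44.5 to 51.6 CPM in HPC-1. In MPP 3 of the 4 deleted libraries lay below every control library, and the other, litter 1, lay inside the control range. The log2 fold change there was -0.20 ± 0.18 (SE, edgeR adjusted p = 0.703), and -0.14 ± 0.16 without the library that stood apart.

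Cdc73 (Entrez 214498, chromosome 1, 143603276 to 143702893, minus strand) encodes parafibromin, a subunit known as a tumour suppressor of the parathyroid. Deleted HSC of litters 1 to 4 held 86.4, 66.9, 79.4 and 56.1 CPM, against 44.6, 81.9, 73.2 and 50.4 CPM in control HSC. The ranges of the groups overlapped over most of their length, and litter 1 alone gave a difference near 1 on the log2 scale, of 0.95. The fitted values were 0.21 ± 0.23 for HSC, 0.12 ± 0.23 for MPP and -0.06 ± 0.13 for HPC-1 (log2 fold change ± SE, edgeR adjusted p of 0.998, 0.861 and 0.999). The MPP value was 0.07 ± 0.22 without the library that stood apart. In GENCODE M21 the exons of Cdc73 cover 17613 bases, far more than its counted length of 2678, and 679 of them overlap the opposite-strand gene B3galt2, which had at most 49 counts in a library.

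Rtf1 (Entrez 76246, chromosome 2, 119675068 to 119735407, plus strand), the loosely attached subunit that recruits the H2B ubiquitination machinery, was the most variable of the 9 in HSC. Its levels there were 33.3, 44.6, 94.8 and 47.6 CPM in deleted libraries of litters 1 to 4 and 64.0, 58.9, 50.2 and 46.2 CPM in control libraries. The deleted group reached both below and above the control group. Deleted MPP held 61.9, 51.7, 95.3 and 55.0 CPM and control MPP 56.0, 46.8, 55.5 and 54.6 CPM. The same deleted mouse, litter 3, was high in both populations, while its HPC-1 library, at 162 CPM, lay among the other HPC-1 libraries, which ran from 153 to 177 CPM. The log2 fold change in MPP was 0.31 ± 0.22 (SE, edgeR adjusted p = 0.655), and 0.08 ± 0.15 without the library that stood apart. In HSC it was 0.005 ± 0.293, with an interval from 0.643-fold to 1.56-fold.

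Wdr61 (Entrez 66317, chromosome 9, 54717153 to 54734549, minus strand) was high in the same deleted mouse. Deleted HSC held 160.5, 168, 211 and 162 CPM in litters 1 to 4, and control HSC 132, 156, 165 and 173 CPM. Deleted MPP held 172, 134, 270.0 and 146 CPM, and control MPP 171.5, 156.5, 153.5 and 153 CPM. The deleted library of litter 3 was the highest of the 8 in HSC and of the 8 in MPP, and of the other deleted MPP libraries litter 1 was level with the highest control and litters 2 and 4 lay below all controls. The log2 fold change in MPP was 0.19 ± 0.22 (SE, edgeR adjusted p = 0.783) with that library and -0.07 ± 0.13 (adjusted p = 0.949) without it. In HPC-1 all 8 libraries lay between 68.6 and 86.5 CPM. In GENCODE M21 the exons of Wdr61 cover 4669 bases over all transcripts, and 1581 of them overlap the opposite-strand chaperone gene Dnaja4, which had 156 to 1028 counts per library. The counted length of Wdr61 is 1308 bases, so the overlap was taken from wider gene models than those counted, and how many counted bases are shared is not known. SMART-Seq reads do not carry the strand, so in HSC and MPP any reads of shared bases cannot be assigned to one of the pair.

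**Figure D3:**
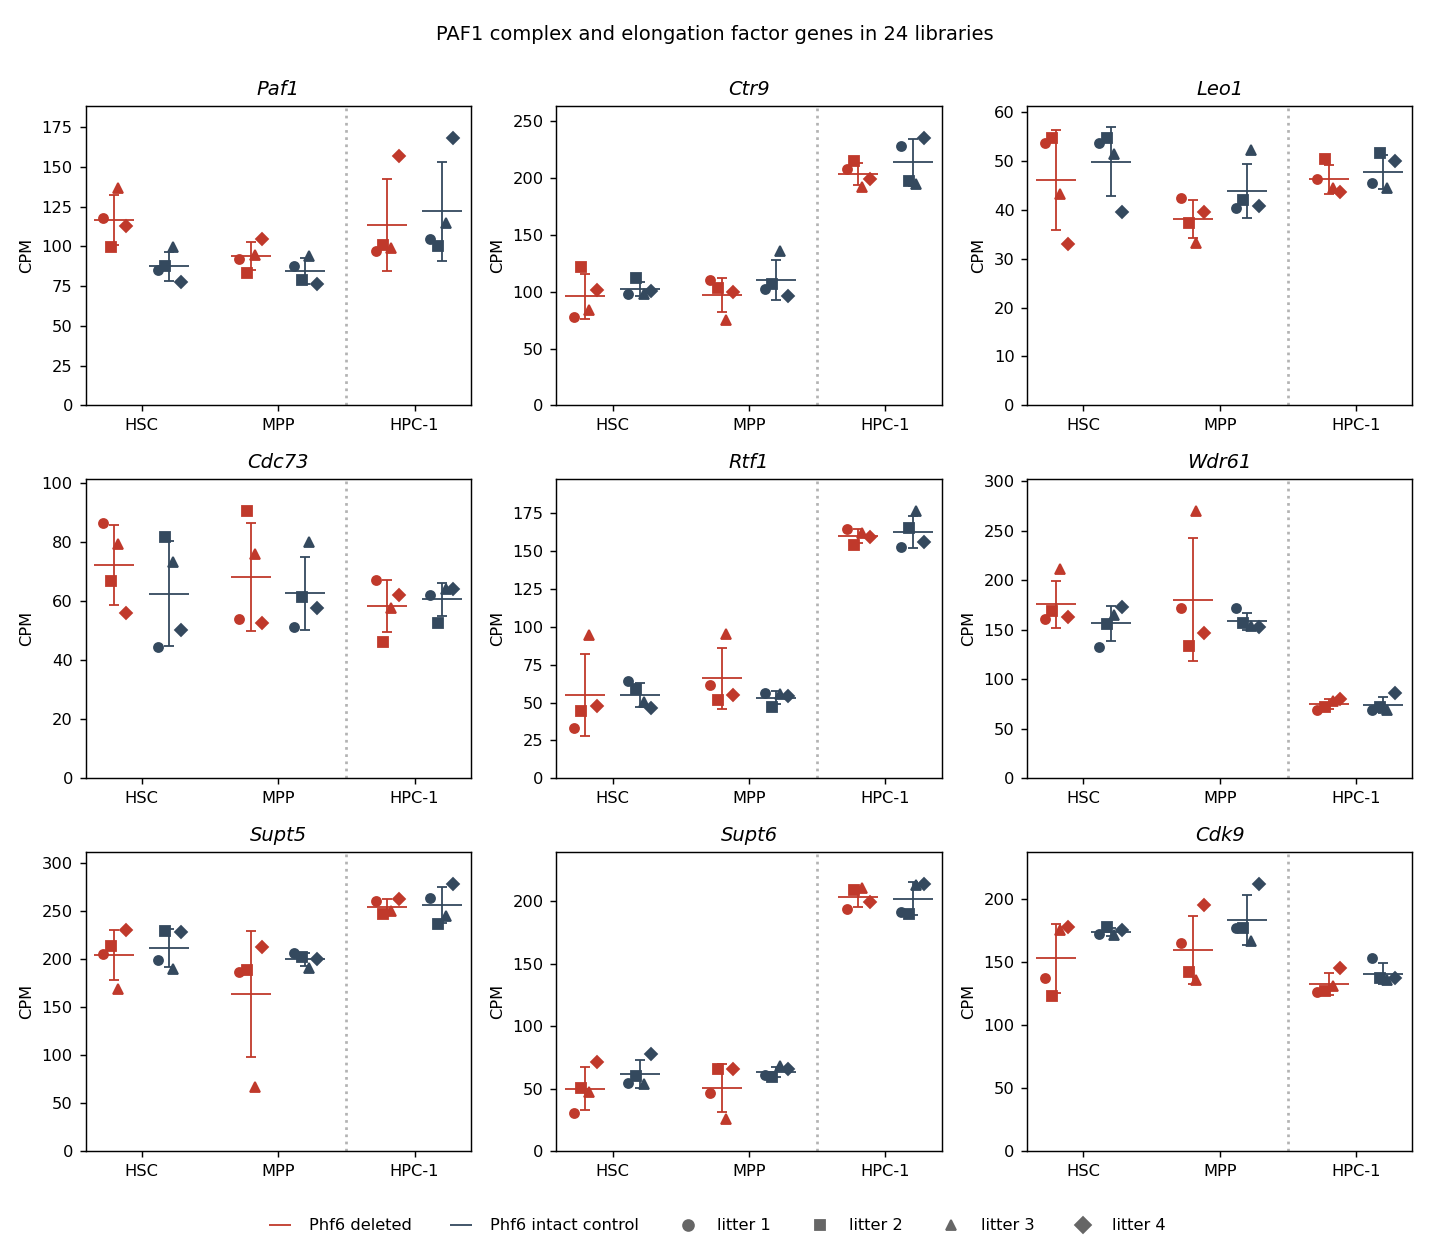
CPM of each of the 9 genes in the 24 libraries (vertical axis, from 0), Phf6-deleted in red to the left of control in dark blue within each population. Symbols give the litter, horizontal lines the group mean and bars the SD. A dotted line sets HPC-1 apart, which was made with another kit. In MPP the deleted library of litter 3 is low for Supt5, at 66.2 CPM, and high for Wdr61, at 270.0 CPM.

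Supt5 (Entrez 20924, chromosome 7, 28314891 to 28338804, minus strand) and Supt6 (Entrez 20926, chromosome 11, 78206749 to 78245972, minus strand) encode SPT5, a subunit of the clamp DSIF that both pauses and aids the polymerase, and SPT6, a histone chaperone that binds the moving polymerase. Their windows upstream of the start are shown because this pair was the most alike of the 9 across all 24 libraries. It did not keep that rank without the MPP library that stood apart. Each runs 5′ to 3′ on the strand of the gene over the 150 bases before the start site used in the RefSeq promoter table on GRCm38.p6, at chr7:28338720-28338869 for Supt5 and chr11:78245704-78245853 for Supt6, both on the minus strand. Those start sites, 28338719 for Supt5 and 78245703 for Supt6, lie 85 and 269 bases inside the 5′ end of the gene spans given above, so the window of Supt5 lies in part and that of Supt6 wholly within its gene span. Capitals mark matches to the motifs searched.
Supt5: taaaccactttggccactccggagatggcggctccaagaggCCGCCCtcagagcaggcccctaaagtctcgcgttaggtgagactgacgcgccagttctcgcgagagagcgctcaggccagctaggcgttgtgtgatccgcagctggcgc
Supt6: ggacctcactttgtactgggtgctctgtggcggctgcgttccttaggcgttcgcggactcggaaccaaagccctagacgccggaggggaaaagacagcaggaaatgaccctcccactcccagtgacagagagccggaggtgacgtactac

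The motifs searched on both strands were the GC box GGGCGG, the CCAAT box CCAAT, the TATA box TATAAA, the ETS core CCGGAAG and the E-box CACGTG. Supt5 holds 1 GC box, read on the opposite strand, and the window of Supt6 holds none of the 5 motifs. Of 27025 promoter windows of this length, 29.0% hold a GC box, 25.3% a CCAAT box, 8.08% a TATA box, 5.68% an ETS core and 4.3% an E-box. GC content was 63.3% for Supt5 and 60.0% for Supt6, against a median of 54.0% over all windows, with 13 and 10 CpG dinucleotides against a median of 4. Windows were at hand for 7 of the 9 genes, without Ctr9 and Wdr61. A GC box was found in Paf1, Leo1, Cdc73, Rtf1, Supt5 and Cdk9, 2 CCAAT boxes in Paf1 and an ETS core in Cdk9.

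Supt5 was at 205, 213, 168.5 and 231 CPM in deleted HSC of litters 1 to 4, against 199, 229, 190 and 228 CPM in control HSC. The control range lay inside the deleted range. In MPP it was at 186.5, 188.5, 66.2 and 212 CPM in deleted libraries and at 206, 202.5, 191 and 200 CPM in control libraries. The litter 3 library, with 681 counts, was alone in being far below the rest. Supt5 deviated from its group there by -1.17 on the log2 scale, the largest deviation of any member in any library. The log2 fold change in MPP was -0.29 ± 0.30 (SE, edgeR adjusted p = 0.747) with that library and -0.02 ± 0.12 (adjusted p = 0.981) without it. In HPC-1 the means were 255 ± 7.73 CPM in deleted and 256 ± 18.7 CPM in control libraries (SD, n = 4 each), which differ by -0.007 ± 0.082 on the log2 scale (SE).

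Supt6 had the lowest fitted value of the 9 in both HSC and MPP. Deleted HSC of litters 1 to 4 held 30.2, 50.5, 47.5 and 71.6 CPM, against 54.1, 60.3, 53.8 and 77.5 CPM in control HSC. Deleted was the lower one in all 4 litters, and both libraries of litter 4 were high, with the deleted one inside the control range. This came to -0.30 ± 0.25 on the log2 scale (SE, edgeR adjusted p = 0.998). It was -0.53 without deleted HSC of litter 4 (edgeR unadjusted p = 0.0463, adjusted p = 0.625) and -0.10 without that of litter 1. Deleted MPP held 46.1, 65.3, 25.3 and 65.3 CPM and control MPP 60.7, 59.5, 68.2 and 65.7 CPM. The litter 3 library was lowest, with 260 counts. The fitted value for MPP was -0.33 ± 0.27 (SE, edgeR adjusted p = 0.689) with it and -0.10 ± 0.16 (adjusted p = 0.936) without it. In HPC-1 all 8 libraries lay between 190 and 214 CPM, and the log2 fold change was 0.009 ± 0.081 (SE). In GENCODE M21 242 exon bases of Supt6 overlap the opposite-strand gene Sdf2, which had 655 to 1645 counts per library.

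Cdk9 (Entrez 107951, chromosome 2, 32705782 to 32712784, minus strand) encodes the kinase that phosphorylates SPT5, the pausing factor NELF and the tail of the polymerase. Deleted HSC of litters 1 to 4 held 137, 123, 175 and 178 CPM, against 172, 178, 171 and 175 CPM in control HSC. Litters 1 and 2 of the deleted group lay below all controls and litters 3 and 4 lay at their level. Deleted MPP held 165, 142, 136 and 195 CPM and control MPP 177.5, 177, 167 and 212 CPM, with the deleted mouse lower in all 4 litters. The fitted log2 fold changes were -0.18 ± 0.16 for HSC, -0.20 ± 0.17 for MPP and -0.09 ± 0.09 for HPC-1 (SE, edgeR adjusted p of 0.998, 0.7 and 0.999). Without the MPP library that stood apart the value there was -0.13 ± 0.15. The interval in HPC-1 ran from -0.27 to 0.09 on the log2 scale.

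Littermates were also set against each other. The median absolute log2 difference of deleted from control littermate over the 9 genes and 4 litters was 0.21 for HSC, 0.13 for MPP and 0.10 for HPC-1, with largest values of 0.95, 1.52 and 0.28. Over the 12 litter pairs, deleted was higher in 9 for Paf1 and 8 for Rtf1, and lower in 9 for Supt6, 9 for Cdk9 and 8 for Leo1. Ctr9, Cdc73, Wdr61 and Supt5 were divided, with deleted higher in 5, 6, 7 and 5 pairs. Since the 3 populations of a mouse come from 1 animal, these 12 pairs are not 12 independent litters.

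Averaged over HSC, MPP and HPC-1 to 1 value per mouse, 0 of the 9 genes passed (limma-trend, Benjamini-Hochberg over 12843 genes), beside 0.101% of all genes tested. At an unadjusted p under 0.05 the count by limma was also 0 of 9, against 8.93% of all genes. Supt6 had the lowest value, -0.25 ± 0.15 on the log2 scale (SE, limma adjusted p = 0.65), and Paf1 the highest, 0.15 ± 0.11 (adjusted p = 0.712). Cdk9 was at -0.17 ± 0.10 (adjusted p = 0.661). Without the deleted mouse of litter 3 Supt6 was at -0.15, and without that of litter 4 at -0.37 (limma adjusted p of 0.807 and 0.315). The limma unadjusted p of Supt6 without that mouse of litter 4 was 0.0183. Cdk9 was then at -0.25 (limma unadjusted p = 0.0265, adjusted p = 0.336), and the intervals of Supt6 and Cdk9 did not hold 0. With all mice kept, all 9 intervals held 0 and lay between 0.672-fold and 1.31-fold of control. The median over the 9 genes was -0.12 with 4 higher and 5 lower, beside a median of -0.02 over all genes.

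Across libraries the 9 genes did not move as one. Each library was set against the mean of its own population on the log2 scale, and the 36 pairs of genes were compared over 24 libraries that share mice, litters and kits. The median Pearson r of the pairs was -0.08. Supt5 and Supt6 were the most alike pair, with r = 0.76 and Spearman rho = 0.73, and Wdr61 and Supt5 the least alike, with r = -0.74 and rho = -0.3. The MPP library of the deleted mouse of litter 3 moved both values. Without it, over 23 libraries, r was 0.5 for the first pair and -0.32 for the second, and both lost their rank. Paf1 and Wdr61 were then the most alike pair, with r = 0.53, and Rtf1 and Supt5 the least alike, with r = -0.51. The 3 other genes most like the mean of the 9 were St3gal3, Evpl and Dus4l, with r of 0.81, 0.77 and 0.77 and rho of 0.76, 0.66 and 0.64 over all 24 libraries, out of 12843 genes compared. The mean of the 9 was lowest in that same MPP library, at -0.20 on the log2 scale. Values of r for these 3 genes without it were not computed.

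**Figure D4:**
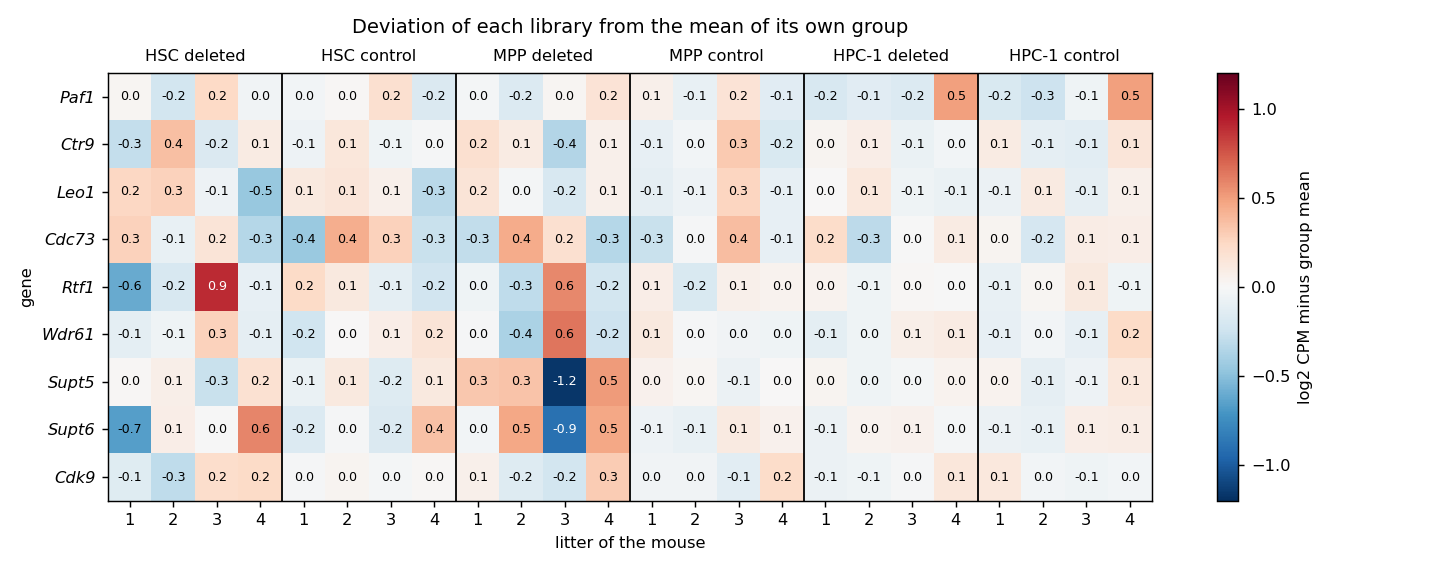
Log2 CPM of each of the 9 genes in each library minus the mean of its own group (colour and printed value), with libraries ordered by group and litter. The strongest deviations are those of Supt5 (-1.17) and Supt6 (-0.90) in deleted MPP of litter 3 and of Rtf1 (0.90) in deleted HSC of litter 3. Paf1 is high in both HPC-1 libraries of litter 4.

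Deviations differed with gene length in several libraries. The median deviation of genes counted over less than 1500 bases, less that of genes over more than 5000 bases, was 0.50 in deleted HSC of litter 3, -0.45 in deleted HSC of litter 4 and -0.39 in deleted MPP of litter 2, the 3 largest in size. Deleted MPP of litter 3 came seventh in size, with a difference of 0.17 and medians of 0.27 and 0.10. Wdr61, at 1308 bases, is the shortest of the 9 and was high in deleted HSC and MPP of litter 3. Rtf1, at 4664 bases, was also high in both. The part of gene length in these deviations was not tested.

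MPP were set against HSC within each genotype, since both were made with the same kit. Both came from the same mice, but the main fits, given next, held no term for the mouse. With the mouse as a block no member passed either. Their intervals then lay between 0.73-fold and 1.3-fold in control mice and between 0.502-fold and 1.82-fold in deleted mice. In control mice 0 of the 9 genes passed (edgeR, adjusted over 13636 genes), beside 8.84% of all genes tested, and in deleted mice 0 of 9 passed (over 13887 genes), beside 1.41%. At an unadjusted p under 0.05, edgeR and DESeq2 both counted 0 of 9 in each genotype, where edgeR counted 21.9% of all genes in controls and 14.4% in deleted mice. The log2 fold changes of MPP over HSC in controls ran from -0.16 for Leo1 to 0.14 for Ctr9, and every interval lay between 0.711-fold and 1.39-fold. The median absolute value over the 9 was 0.05, beside 0.25 over all genes. In deleted mice the values ran from -0.30 for Supt5 to 0.28 for Rtf1, with wider intervals between 0.503-fold and 2.04-fold. Without the MPP library that stood apart Supt5 was at -0.03 and Rtf1 at 0.06, and the values then ran from -0.29 for Paf1 to 0.27 for Supt6. Without deleted HSC of litter 3 Rtf1 was at 0.68 (edgeR unadjusted p = 0.0359, adjusted p = 0.349).

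Paf1 had the lowest p of the 9 in deleted mice, with 95.2 ± 8.86 CPM in MPP and 115 ± 15.7 CPM in HSC on a scale shared by both populations (SD, n = 4 each). Its log2 fold change was -0.29 ± 0.19 (SE, edgeR adjusted p = 0.521). In control mice Paf1 was at 85.4 ± 8.53 CPM in MPP and 86.4 ± 8.71 CPM in HSC, a log2 fold change of -0.03 ± 0.13.

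Effects of deletion in separate populations were also subtracted from each other and the difference tested. The main fits held no term for the mouse, though the 16 libraries of each came from 8 mice. HPC-1 was made with another kit, so a differing effect between it and HSC or MPP cannot be told apart from the kit. For MPP minus HSC, HPC-1 minus HSC and HPC-1 minus MPP, 0 of the 9 genes passed (edgeR), beside 0.0% of all genes tested in each. The counts of all genes at an unadjusted p under 0.05 were 417, 518 and 668, or 2.86%, 3.46% and 4.48%, and for the 9 genes they were 0 with edgeR and 0 with DESeq2 in each. DESeq2 called 2, 11 and 7 of all genes and 0 of the 9. Adjusted p-values of the 9 were 0.915 or higher. The intervals were wide. In MPP minus HSC they reached from 0.513-fold, for Supt5, to 2.16-fold, for Rtf1. Without the MPP library that stood apart they reached from 0.558-fold to 1.81-fold. Rtf1 was at 0.30 on the log2 scale there, at 0.08 without that library and at 0.69 without deleted HSC of litter 3 (edgeR unadjusted p = 0.0317, adjusted p = 0.99).

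The proteins around these 9 were covered by 56 further genes in 7 lists. With deletion, edgeR called 0 of 54 tested in HSC, 0 of 56 in MPP and 0 of 55 in HPC-1, and limma 0 of 54 in the mouse means. The shares of all genes called were 0.0073%, 0.029%, 0.0647% and 0.101%. At an unadjusted p under 0.05 the counts were 1, 4, 0 and 2, beside 3.86%, 8.09%, 4.99% and 8.93% of all genes. DESeq2 called 0 in each population and counted 1, 5 and 1 at an unadjusted p under 0.05. Direct partners (Supt4a, Iws1, Ccnt1, Ccnt2, Skiv2l and Ttc37) had medians of 0.05 for HSC, -0.09 for MPP and 0.04 for HPC-1 on the log2 scale. Genes of P-TEFb release and recruitment had medians of -0.08, 0.06 and -0.01, and FACT, TFIIS and elongin genes -0.06, 0.04 and 0.01. The 4 genes of NELF, which holds the paused polymerase, had medians of -0.10, -0.21 and -0.13, with 3, 4 and 4 of the 4 below 0. RNA polymerase II subunits had medians near 0 for HSC, -0.08 for MPP and -0.03 for HPC-1, with 6, 7 and 10 of 12 below 0. The co-transcriptional histone modifiers had medians of 0.04, 0.26 and -0.01. The later kinases Cdk12 and Cdk13 with the cyclin Ccnk had medians of 0.61, 0.16 and 0.04, with 2, 3 and 2 of the 3 above 0. Their median in the mouse means was 0.32, beside -0.02 over all genes. There 2 of the 3, Cdk12 and Ccnk, had a limma unadjusted p under 0.05, beside 8.93% of all genes. The limma unadjusted p of Cdk12 was 0.113 without the deleted mouse of litter 2. That of Ccnk was 0.119 without the deleted mouse of litter 3. In HPC-1 alone Ccnk was at -0.07. The medians of all genes tested were 0.006, 0.02 and -0.004. Without the MPP library that stood apart the medians in MPP were 0.01 for the histone modifiers and -0.18 for the polymerase subunits, with 11 of 12 below 0. They were -0.13 for NELF with 3 of 4 below 0, and -0.10 for FACT, TFIIS and elongin with 7 of 7 below 0. The partners were at -0.10, P-TEFb release at 0.08 and the later kinases at 0.11, and 0 of the 56 passed. Over all 56 the median was 0.035 with that library, with 25 below 0, and -0.07 without it, with 33 below 0. The median of all genes without that library is not given here, so these counts cannot be set beside a share of all genes.

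Single genes of these lists with the lowest p did not pass either. In HSC Cdk12, a later kinase of the polymerase tail, was at 0.61 ± 0.23 and Tcea2, a TFIIS gene, at 0.48 ± 0.23 on the log2 scale (SE, edgeR adjusted p of 0.998 each). In MPP Mllt3, a subunit of the super elongation complex, was at 0.62 ± 0.20 and Hexim1, the P-TEFb inhibitor, at 1.09 ± 0.42 (SE, edgeR adjusted p of 0.551 and 0.603). Hexim1 was at 46.5 CPM in deleted MPP of litter 3 and at 13.2 to 15.2 CPM in the other deleted MPP libraries, against 8.15 to 13.3 CPM in control MPP. Without the litter 3 library Hexim1 was at 0.44 ± 0.24 (edgeR adjusted p = 0.736) and Mllt3 at 0.62 ± 0.18 (adjusted p = 0.319). In HPC-1 Eaf2, with 88 counts over the deleted and 20 over the control libraries, was at 2.16 ± 1.05 and Cdk12 at 0.19 ± 0.10 (SE, edgeR adjusted p of 0.988 and 0.999). With a library left out Eaf2 ran from 1.60 to 3.45, highest without control HPC-1 of litter 2 (edgeR adjusted p = 0.756). Cdk12 was at 0.32 ± 0.13 and its cyclin Ccnk at 0.49 ± 0.22 in the mouse means (SE, limma adjusted p of 0.535 and 0.553).

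Between MPP and HSC of control mice 4 of these 56 genes passed the test. In MPP 1 rose and 3 fell (edgeR, DESeq2 called the same 4), a share near the 8.84% of all genes called. Polr2f, a subunit shared by the RNA polymerases, fell to 55.1 ± 9.85 CPM in control MPP, against 88.5 ± 8.13 CPM in control HSC (SD, n = 4 each), which is -0.69 ± 0.15 on the log2 scale (SE, adjusted p = 0.0129 by edgeR). Mllt3 was at 85.5 ± 20.9 CPM in control MPP and 138 ± 14.8 CPM in control HSC, a change of -0.70 ± 0.16 (adjusted p = 0.0152). Supt16, a subunit of the histone chaperone FACT, was at 63.7 ± 15.9 CPM in control MPP and 93.6 ± 3.57 CPM in control HSC, a change of -0.56 ± 0.16 (adjusted p = 0.0458). Ube2b, a ubiquitin-conjugating enzyme of the H2B pathway, rose to 232 ± 49.4 CPM in control MPP, against 162 ± 9.55 CPM in control HSC, a change of 0.52 ± 0.14 (adjusted p = 0.039).

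Polr2f passed with each of the 8 libraries left out in turn, with adjusted p up to 0.0496. The other calls were lost in some of these fits, though none changed direction. Their log2 fold changes ran from -0.87 to -0.62 for Mllt3, from -0.73 to -0.48 for Supt16 and from 0.37 to 0.60 for Ube2b. Mllt3 was lost without HSC of control litter 2 or MPP of control litter 1, 2 or 4 (adjusted p up to 0.0665). Ube2b passed in 2 of the 8 fits, those without HSC of control litter 1 or MPP of control litter 2 (up to 0.111 in the others), and Supt16 only without MPP of control litter 3 (up to 0.143). With the mouse as a block, the replicate block of this comparison, 2109 of the 13636 genes tested passed. Of the 56, 8 passed, a share near that of all genes, with 2 higher and 6 lower in MPP. The 4 more were Elob, Polr2j and Polr2e, which were lower, and Wac, which was higher, with log2 fold changes of -0.39, -0.37, -0.32 and 0.29 (edgeR adjusted p of 0.0306, 0.0421, 0.0488 and 0.047). In deleted mice edgeR called 1.41% of all genes, and 14.4% had an unadjusted p under 0.05. Of the 54 tested edgeR and DESeq2 called 0, with 5 and 6 at an unadjusted p under 0.05. The lowest p-values there belonged to Ube2b, at 0.94 ± 0.31, and Dot1l, the histone H3 lysine methyltransferase, at 0.68 ± 0.25 (SE, edgeR adjusted p of 0.179 and 0.231). Ube2b was at 576 CPM in deleted MPP of litter 3 and at 209.6 to 244 CPM in the other deleted MPP libraries, against 157 to 182.5 CPM in deleted HSC. Without the litter 3 library of MPP it was at 0.49 ± 0.15 (SE, edgeR adjusted p = 0.167).

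No gene of the 56 passed with edgeR or DESeq2 in the tests of a differing effect. In MPP minus HSC, HPC-1 minus HSC and HPC-1 minus MPP, edgeR counted 2.86%, 3.46% and 4.48% of all genes at unadjusted p under 0.05. Of the 56, edgeR and DESeq2 each counted 1, 1 and 3. Mllt3 had the lowest p in MPP minus HSC, at 0.72 ± 0.26 on the log2 scale (SE, edgeR adjusted p = 1), and Aff1 was at 0.67 ± 0.33. Mllt3 averaged 132 ± 14.7 CPM in deleted MPP and 85.5 ± 20.9 CPM in control MPP, and 130 ± 29.0 CPM in deleted HSC and 138 ± 14.8 CPM in control HSC (SD, n = 4 each). In HPC-1 minus HSC, Aff1 was at 0.67 ± 0.29 and Nelfcd at -0.34 ± 0.18, and in HPC-1 minus MPP, Ccnk was at -0.94 ± 0.35 and Mllt3 at -0.56 ± 0.22 (SE, edgeR adjusted p between 0.915 and 1).

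Markers of other cell types were present at levels that differed among libraries. Over 14 neutrophil and monocyte genes the summed level ran from 1455 to 10970 CPM in deleted and from 810 to 7700 CPM in control HSC, from 1442 to 13810 CPM in deleted and from 647 to 2977 CPM in control MPP, and from 794 to 3394 CPM in deleted and from 1061 to 1801 CPM in control HPC-1. All 14 averaged above 1 CPM in each group, and the deleted library of litter 4 held the highest sum in HSC, MPP and HPC-1. Their part in the levels of the 9 genes was not tested. Over 9 B and plasma cell genes the sum had a median of 1793 CPM in deleted and 946 CPM in control HPC-1, with ranges of 526 to 2373 and 552 to 1219 CPM, most of it Ighm, the immunoglobulin heavy chain. In MPP that sum ran from 133 to 366 CPM in deleted and from 82.9 to 152 CPM in control libraries, and in HSC from 46.2 to 66.6 CPM in deleted and from 39.4 to 74.4 CPM in control libraries, with Pax5 at 0 in the deleted and control libraries of both. The sum of 6 basophil and mast cell genes had a median of 91.2 CPM in deleted and 21.5 CPM in control HSC, with ranges of 14.6 to 143 and 10.3 to 30.0 CPM, and Cma1 at 0 in both. It ran from 4.97 to 90.0 CPM in deleted and from 13.2 to 32.8 CPM in control MPP. Over 8 T and NK cell genes the sum ran from 75.7 to 212 CPM in deleted and from 136 to 182 CPM in control HSC, and from 62.0 to 154 CPM in deleted and from 135 to 211 CPM in control MPP. Nkg7 made up most of it, at a mean of 116 CPM in deleted and 152 CPM in control HSC, while Cd3e and Cd8a were at 0 in HSC and MPP of both genotypes. Over 6 endothelial and stromal genes the sum was 263 CPM in control HSC of litter 1. It was 24.8 to 30.1 CPM in the other control HSC libraries and 23.0 to 53.6 CPM in deleted HSC. Col1a1 reached 221 CPM in control HSC. The sum of 6 megakaryocyte genes ran from 820 to 1442 CPM in deleted and from 861 to 1483 CPM in control HSC. That of 7 erythroid genes ran from 44.2 to 144 CPM in deleted and from 52.5 to 187 CPM in control HSC. The part of these lists too in the levels of the 9 genes was not tested.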

How the data were processed

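Poly(A) RNA was sequenced in 24 libraries of 8 mice as 80 bp paired-end reads. The authors deposited whole-number counts per gene. The submitters' processing notes name bcl2fastq, featureCounts and the build mm10, while the sources used here do not give the aligner, annotation, versions or strand. The table of the series was identical to the 24 deposited sample files, and 25275 of its 27179 Entrez identifiers were named from RefSeq genes of GRCm38.p6, which also gave coordinates and promoter windows. Exon overlaps are from GENCODE M21.

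Each comparison was fitted over all genes with edgeR 4.0.16 in R 4.3.3 (TMM, default expression filter with a count of 10 and 15 in total, robust quasi-likelihood test, Benjamini-Hochberg adjustment, threshold 0.05). Each population was fitted alone, MPP against HSC within a genotype, and differences of effect over 16 libraries. The standard error is the log2 fold change divided by the square root of F. Mouse means of log2 CPM (prior count 2) were tested with limma 3.58.1. Scripts were tested on simulated counts. Alternatives were DESeq2 1.42.0, its size factors, no filter, a replicate block and leaving out each library. Amplified reads are not independent molecules.

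The 9 members and the lists were chosen with earlier results of these data known. Named genes are all 9, Phf6, and of the 7 companion lists up to 6 genes past the threshold per comparison, or up to 2 with the lowest p where none passed. The replicate number pairs libraries by design: it is the litter of the deleted and control mouse, and the same mouse across populations. The correlation of littermates' deviations over genes was 0.01 to 0.06 for HSC, 0.0 to 0.15 for MPP and 0.08 to 0.38 for HPC-1. The highest correlation of each deleted mouse with a control mouse of another litter was 0.01 to 0.06 for HSC, 0.06 to 0.14 for MPP and -0.07 to 0.12 for HPC-1.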

Additional observations from a re-analysis of the deposited data

Results flagged for a closer look

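In 5 of 54 groups of 4 libraries, a library's CPM lay farther from its nearest neighbour than Dixon's 95% limit allows, where chance gives about 5% of groups. Paf1 was highest in deleted HPC-1 of litter 4, at 156.7 CPM. Wdr61 was highest in deleted HSC of litter 3, at 211.2 CPM. Leo1 was highest in control MPP of litter 3, at 52.28 CPM, and Rtf1 lowest in control MPP of litter 2, at 46.75 CPM. Cdk9 was highest in control HPC-1 of litter 1, at 153.5 CPM.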

How the results depend on the processing

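Of 81 results for the 9 genes (9 comparisons), 0 passed the threshold under any alternative, and the lowest adjusted p was 0.315. Of 315 values under other size factors, no filter, DESeq2 and the replicate block, 5 turned their direction, all near 0. Without the filter Rtf1 was at -0.003 in HSC and 0.001 for MPP against HSC in control mice. With the replicate block Rtf1 was at -0.098 in HSC and 0.077 for the effect in HPC-1 minus HSC, and Wdr61 at -0.028 for the effect in MPP minus HSC. The block changed the call of no member. Over all genes it moved the calls to 0 in HSC, 6 in MPP, 60 in HPC-1, 2109 for MPP against HSC in control mice and 293 in deleted mice, against 1, 4, 9, 1205 and 196 without it. DESeq2 called 14, 96, 68, 1693 and 843 of all genes in the same comparisons, and without the filter edgeR called 20 in HPC-1. Leaving out 1 library or mouse turned the direction of 93 of 864 values, in 36 results. Their lowest and highest log2 fold changes are given here. In HSC, they were Ctr9 -0.217 to 0.014, Leo1 -0.198 to 0.012, Rtf1 -0.384 to 0.201 and Supt5 -0.12 to 0.038. In MPP, they were Cdc73 -0.047 to 0.263 and Wdr61 -0.069 to 0.3. In HPC-1, they were Paf1 -0.3 to 0.09, Cdc73 -0.133 to 0.039, Rtf1 -0.051 to 0.018, Wdr61 -0.017 to 0.102, Supt5 -0.043 to 0.036 and Supt6 -0.019 to 0.038. For MPP against HSC in control mice, they were Paf1 -0.079 to 0.042, Cdc73 -0.096 to 0.194, Rtf1 -0.086 to 0.081 and Wdr61 -0.01 to 0.105. For MPP against HSC in deleted mice, they were Ctr9 -0.054 to 0.171, Cdc73 -0.214 to 0.05, Wdr61 -0.189 to 0.191, Supt6 -0.144 to 0.269 and Cdk9 -0.032 to 0.164. For the effect in MPP minus HSC, they were Ctr9 -0.179 to 0.045, Leo1 -0.219 to 0.012, Cdc73 -0.248 to 0.063, Wdr61 -0.244 to 0.138, Supt5 -0.382 to 0.016, Supt6 -0.208 to 0.197 and Cdk9 -0.125 to 0.064. For the effect in HPC-1 minus HSC, they were Ctr9 -0.066 to 0.16, Leo1 -0.055 to 0.171, Rtf1 -0.21 to 0.388 and Supt5 -0.019 to 0.117. For the effect in HPC-1 minus MPP, they were Ctr9 -0.012 to 0.177 and Wdr61 -0.297 to 0.091. In the mouse means, they were Rtf1 -0.11 to 0.122 and Supt5 -0.246 to 0.007. Of 54 levels per kilobase, 53 moved by less than 1 SD, and Supt5 in control MPP was at 58.9 CPM per kilobase on unscaled library totals, against 56.9 as reported. Supt16 was lost for MPP against HSC in control mice without the filter (edgeR adjusted p = 0.0619). The causes were not tested. Counts were lowest for Supt6, at 260 in a library.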
